A study of Mus musculus with 6 samples.

Results

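The 10 genes described here encode transcription factors of the naive pluripotency network of mouse embryonic stem (ES) cells: Pou5f1, Sox2, Nanog, Zfp42, Nr0b1, Nr5a2, Tbx3, Prdm14, Tfcp2l1 and Sall4. They were chosen by gene name, and all 10 were found among the 22602 genes of the expression table. 9 were listed under their current symbol, and Tfcp2l1 under its older symbol Tcfcp2l1. All 10 had a mean of at least 1 RPKM (reads per kilobase of cDNA, scaled to the reads of the library) and passed the filter on low values.

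mRNA was sequenced in 6 libraries of mouse ES cells. The Sim2 libraries were 1 culture of each of 3 clones, A6, B8 and C4. Each clone holds mouse Sim2 with a Flag tag, and Venus downstream, at the ROSA26 locus under the hCMV*-1 promoter that a tetracycline-regulated transactivator turns on when the drug is removed. The EB3 libraries, EB3-0, EB3-1 and EB3-2, were 3 cultures of the parental EBRTcH3 line, which carries the same transactivator and lacks the Sim2 transgene. The study used Venus as an internal control of induction in the clones and in EB3 alike. All 6 cultures were grown in serum and leukaemia inhibitory factor (LIF) and kept without tetracycline for 26 h. The comparison therefore sets 3 clones against 1 line, with no library of a clone kept in tetracycline analysed here, and clone of origin and Sim2 expression cannot be told apart within a single clone.

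In ES cells, POU5F1 (OCT4), SOX2 and NANOG bind together at many regulatory regions and maintain one another's expression. Around this core, factors such as TFCP2L1, TBX3, NR5A2 and PRDM14 hold the naive state, which resembles the epiblast before implantation, and they connect it to LIF signalling or keep differentiation genes silent. Several of these genes, Zfp42 (Rex1) among them, are shut down when cells leave the naive state for the formative and primed states. SIM2 is a bHLH-PAS factor that binds DNA as a dimer with ARNT, and the comparison asks which of the network's mRNAs differ when it is expressed.

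For 7 of the 10 genes the RefSeq table of promoters (build GRCm38.p6) held at least 1 window, 10 windows in all, and the 250 bases before each transcription start were searched on both strands. The letters ACGTG, the core of the element bound by SIM2 with ARNT, occurred in 0 of the 10 windows and in 16.6% of the 32851 windows of the table. The octamer ATGCAAA, which POU5F1 and other POU factors recognise, occurred in windows of Nanog, Sox2 and Zfp42, and in 4.12% of all windows. A composite joins octamer letters TGCAT and, after 1 base of any kind, SOX letters ACAATG, and it overlaps the octamer match. It occurred in both Nanog windows and in 0.0274% of all windows. The Nanog windows start at 122707239 and 122707315 and overlap, so both hold the same site of the genome. The 3 promoters with an octamer are shown, since their genes are network members that carry letters read by another member. The sequences run 5′ to 3′ along the gene's strand up to the base before the start, and capitals mark the match, on whichever strand it was found: in Nanog the octamer together with the composite.
Nanog (chr6:122707239-122707488, plus strand): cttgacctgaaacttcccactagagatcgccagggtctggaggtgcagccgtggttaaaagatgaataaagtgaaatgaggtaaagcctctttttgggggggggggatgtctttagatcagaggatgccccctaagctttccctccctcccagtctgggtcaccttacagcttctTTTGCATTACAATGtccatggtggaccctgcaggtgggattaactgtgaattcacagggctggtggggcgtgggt
Sox2 (chr3:34649745-34649994, plus strand): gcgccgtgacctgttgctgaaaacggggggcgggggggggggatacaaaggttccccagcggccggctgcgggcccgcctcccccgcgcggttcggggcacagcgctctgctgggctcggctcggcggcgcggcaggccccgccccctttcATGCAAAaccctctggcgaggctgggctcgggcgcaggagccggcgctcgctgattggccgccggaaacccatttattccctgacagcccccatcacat
Zfp42 (chr8:43307010-43307259, minus strand): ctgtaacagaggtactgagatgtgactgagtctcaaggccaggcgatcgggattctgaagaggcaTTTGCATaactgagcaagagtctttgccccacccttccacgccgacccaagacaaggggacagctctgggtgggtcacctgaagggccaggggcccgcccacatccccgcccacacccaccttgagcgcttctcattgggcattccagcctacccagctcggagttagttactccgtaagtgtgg

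The octamer lay 75 to 69 bases before the start in the Nanog window shown, 99 to 93 in Sox2 and 185 to 179 in Zfp42, and the Nanog composite lay 73 to 62 bases before it. A match describes the letters of the window and is not evidence of binding. Tbx3, Prdm14 and Sall4 were not searched.

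Sim2 itself had 196, 212 and 168 RPKM in A6, B8 and C4, and 0.130, 0.0917 and 0.104 RPKM in EB3-0, EB3-1 and EB3-2, as the labels say. Depth ran from 25095861 reads in A6 to 28269340 in C4, and each of the 10 factors had at least 584 reads in every library (Prdm14 the fewest, Pou5f1 the most with up to 72022). Were each read independent, the counting error of the least read library would be 4.14% for Prdm14 and 0.438% for Pou5f1. Both mates of a pair were counted, so these are lower bounds. Markers of ES cells were high in all libraries. The 6 used summed to 2957 to 3171 RPKM for the clones and 3121 to 3493 RPKM for EB3. They include Pou5f1, Sox2, Nanog and Zfp42 of the 10 factors, and Pou5f1 was the highest, with a mean of 1634 RPKM. This sum is therefore not independent of the levels described here. Of the trophectoderm markers 4 of 6 stayed below 1 RPKM in every library, of the mesoderm markers 4 of 5, of the primitive endoderm markers 5 of 8 and of the fibroblast markers 5 of 6. The summed primitive endoderm markers were 17.2 to 38.1 RPKM with Sim2 and 10.4 to 14.8 RPKM without it, mostly Lama1. All 8 had a higher mean in the clones, at low levels for the defining markers, with 0.921 against 0.641 RPKM for Gata4, 0.535 against 0.314 RPKM for Gata6 and 0.290 against 0.0551 RPKM for Sox17, and of the 2 that passed the filter 0 were called. Summed neural markers were 87.7 to 109 RPKM with Sim2 and 128 to 145 RPKM without it, a sum carried by Tubb3. Of the 5 neural markers tested, 3 had a higher and 2 a lower mean log2 value in the clones. Nes was higher, with 8.30 to 9.15 against 5.75 to 6.03 RPKM (limma, adjusted p = 0.0787). Tubb3 was lower, with a log2 fold change of -0.60 (limma, adjusted p = 0.0751). Neither was called with all libraries. Without EB3-0 limma's adjusted p was 0.0396 for Nes and 0.0596 for Tubb3, in a fit that called 5.99% of all tested genes. The part of these cell type markers in the results on the 10 factors was not tested.

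EB3-0 stood apart from EB3-1 and EB3-2 in a way that followed cDNA length. For cDNAs shorter than 1000 bases its log2 value lay a median of 0.35 above the mean of the other two EB3 libraries, and for cDNAs of at least 8000 bases 0.66 below it. Among the network factors, Tfcp2l1 (cDNA of 9270 bases) was 0.64 lower in EB3-0 on the log2 scale and Nr5a2 (3720 bases) 0.76 lower, while Pou5f1 (1346 bases) was 0.28 higher. After removal of each library's trend with length the difference of Tfcp2l1 was -0.05 and that of Pou5f1 was 0.08. Nr5a2 stayed at -0.61, and Tbx3 (5082 bases) moved from 0.22 to 0.50. Removing the trend brought EB3-0 nearer to the other two in 4 of the 10 factors. EB3-1 and EB3-2 themselves were close, with ratios of EB3-2 to EB3-1 from 0.954 in Prdm14 to 1.05 in Sox2. EB3-0 was the EB3 library farthest from the other two for every factor except Zfp42 and Sox2, for which EB3-2 was.

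**Figure D1:**
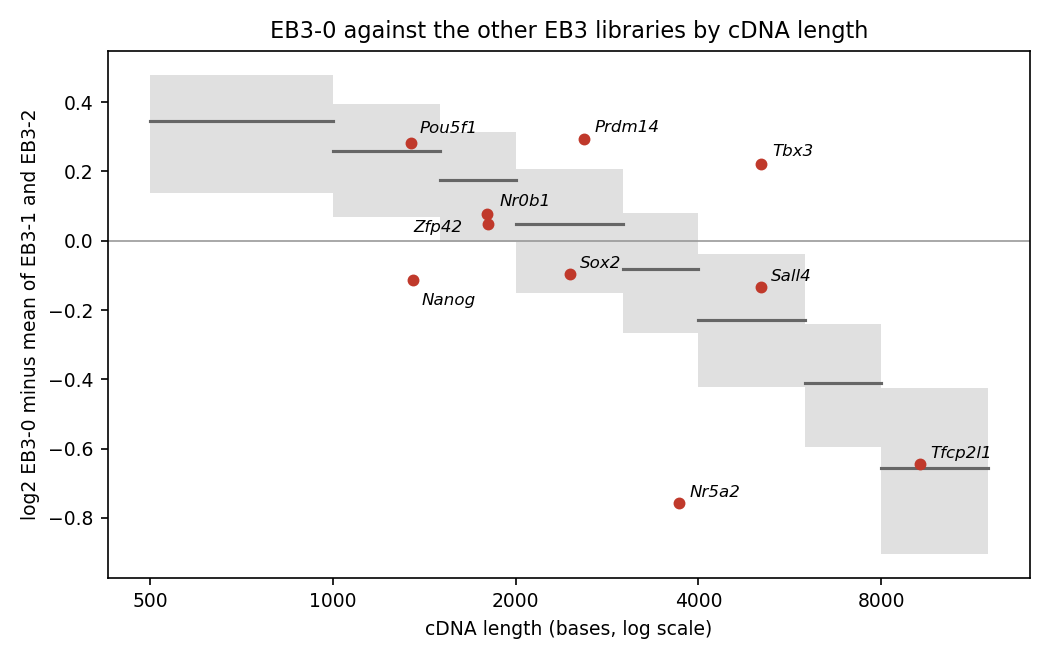
Log2 level in EB3-0 minus the mean of EB3-1 and EB3-2 against cDNA length in bases (log scale). Grey bars give the median and the shaded boxes the middle of the distribution from the lower to the upper quartile of all tested genes in each length class, and red points the 10 factors. Tfcp2l1 sits on the median of its class, and Nr5a2, Nanog, Prdm14 and Tbx3 lie outside the box of theirs.

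None of the 10 factors passed the test between the Sim2 clones and EB3. By limma on log2(RPKM + 0.5), adjusted over 11595 tested genes, 0 of 10 were called at an adjusted p under 0.05, where 0.699% of all tested genes were called. At an unadjusted p under 0.05 the count was 1 of 10, against 17.8% of all tested genes, and limma voom on recovered reads also called 0. The values of the clones and of EB3 did not overlap for 1 of 10 factors, Zfp42, against 26.1% of all tested genes. 4 factors had a higher mean log2 value in the clones and 6 a lower one, with a median log2 fold change of -0.08 beside -0.01 over all tested genes. Under 14 of 15 alternatives 0 of 10 were called too, and under 1, without EB3-0, Zfp42 was called, where 5.99% of all tested genes were. In the other alternatives the share of all tested genes called was 0.673% and 0.699% with pseudocounts of 0.1 and 1, 0.156% with no filter on low values, 0.569% with libraries centred on their median, 0.552% with voom, 0.259% without the intensity trend and 2.16% with the length trend removed. It was 6.48% with the length trend removed and EB3-0 left out, and 0.0517% with EB3-1 and EB3-2 averaged, without EB3-1 or without EB3-2. Leaving out A6, B8 and C4 gave 0.172%, 0.147% and 0.0604%. These are bulk samples, so fewer cells expressing a factor and less mRNA in each cell cannot be told apart.

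**Figure D2:**
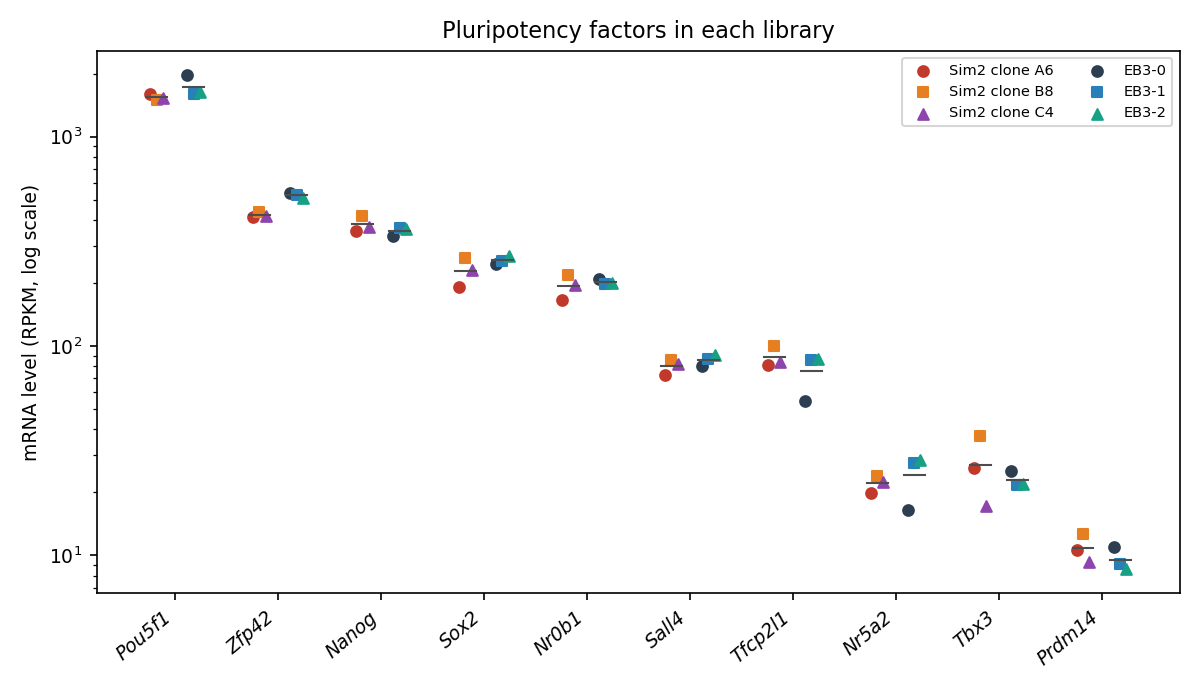
mRNA level in RPKM (log scale) of the 10 factors in each library, ordered by level, with the clones to the left and EB3 to the right of each tick and a bar at each group's mean. Zfp42 is the factor whose 3 clones all lie below the 3 EB3 libraries, and Tbx3 has the widest spread among clones.

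Of the core factors, Pou5f1, the POU-family gene without which ES cells turn to trophectoderm, was by far the most abundant of the 10. It lies on chromosome 17, 35642984 to 35647722 (plus strand, 5 exons; these and all gene positions are in build mm9). Its level was 1593.9, 1501.5 and 1521.5 RPKM in A6, B8 and C4, and 1960.5, 1590.5 and 1634.6 RPKM in EB3-0, EB3-1 and EB3-2. EB3-0 was the highest library, and the groups overlapped because A6 lay just above EB3-1. The log2 fold change of the clones over EB3 was -0.16 (SE 0.13; 95% interval -0.46 to 0.14; limma, adjusted p = 0.570; exact permutation p = 0.2, where 0.1 is the smallest that 3 against 3 allow). Without EB3-0 it was -0.07, with an interval of -0.19 to 0.06. Pou5f1 ranked 9 by mean RPKM among all tested genes.

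Sox2, the HMG-box partner of POU5F1 at shared sites, lies on chromosome 3, 34548927 to 34551382 (plus strand, 1 exon). It measured 191, 263 and 230 RPKM in A6, B8 and C4, and 245, 256 and 269 RPKM in EB3-0, EB3-1 and EB3-2. A6 was the lowest of all libraries and B8 fell among the EB3 values. The clones over EB3 gave a log2 fold change of -0.18 (SE 0.13; 95% interval -0.47 to 0.11; limma, adjusted p = 0.497; exact permutation p = 0.3). It was -0.06 without A6 and -0.29 without B8. Clones spread more widely, at 228 ± 36.1 RPKM, than EB3, at 257 ± 12.0 RPKM (SD, n = 3 each). Sox2ot, a non-coding gene listed on the same strand around Sox2, had a mean of 1.22 RPKM, so it was read very little beside Sox2.

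Nanog, the homeobox gene that lets ES cells self-renew without LIF when its level is raised, lies on chromosome 6, 122657586 to 122663796 (plus strand, 4 exons). It had 354, 419 and 369 RPKM in A6, B8 and C4, and 335, 365 and 362 RPKM in EB3-0, EB3-1 and EB3-2. B8 was the highest and EB3-0 the lowest library, and A6 lay among the EB3 values. On the log2 scale the difference of the clones from EB3 was 0.10 (SE 0.10; 95% interval -0.13 to 0.34; limma, adjusted p = 0.645; exact permutation p = 0.4). Without B8 it was 0.03 and without EB3-0 0.06. A stretch of 1325 bases on chromosome X matches the Nanog cDNA with 97.4% identity. It is the longest of 2120 matches elsewhere of at least 200 bases at an identity of at least 90%. Nanogpd, an entry that overlaps Nanog on the same strand, is listed with 400 to 508 RPKM. Reads of Nanog may be shared with this entry and with positions elsewhere, so the level of Nanog is uncertain to that extent.

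Zfp42 (Rex1), a zinc-finger gene of the YY1 family and a standard marker of naive cells, was the factor with the largest difference relative to its error. It lies on chromosome 8, 44380421 to 44392363 (minus strand, 4 exons). Its level was 415, 439 and 419 RPKM in A6, B8 and C4, and 536, 526 and 511 RPKM in EB3-0, EB3-1 and EB3-2. All 3 clones lay below all 3 EB3 libraries, and the libraries of each group were close together, with mean levels of 424 ± 12.8 RPKM for the clones and 525 ± 12.6 RPKM for EB3 (SD, n = 3 libraries each). Sim2 clones against EB3 gave a log2 fold change of -0.31 (SE 0.09; 95% interval -0.51 to -0.10), or -19.2% on the linear scale with an interval of -30.0% to -6.73%. The unadjusted p from limma was 0.00884 and the adjusted p 0.145, past no threshold over all genes, and by exact permutation p was 0.1, again at its lower limit.

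Zfp42 was called when 1 library, EB3-0, was left out. Its log2 fold change was then -0.29 and limma's adjusted p 0.0350, in a fit that called 5.99% of all tested genes. Over all 15 alternatives run, the fold change of Zfp42 stayed negative and its adjusted p ran from 0.0350 to 0.393. Removing the length trend gave -0.27 with an adjusted p from limma of 0.0876, and doing so without EB3-0 gave -0.29 with an adjusted p of 0.0503. A stretch of 617 bases on chromosome 15 matches the Zfp42 cDNA with 97.7% identity, and how reads with several positions were treated is not given in the sources used here.

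Nr0b1 (Dax1), an orphan nuclear receptor that binds POU5F1 and NR5A2, lies on chromosome X, 83437114 to 83441283 (plus strand, 2 exons). It had 166, 218 and 195 RPKM in A6, B8 and C4, and 209, 197 and 199 RPKM in EB3-0, EB3-1 and EB3-2. The clones lay on both sides of EB3, with A6 the lowest and B8 the highest of the 6 libraries. Its log2 fold change was -0.07 (SE 0.11; 95% interval -0.32 to 0.19; limma, adjusted p = 0.794; exact permutation p = 0.7), and it was 0.04 without A6, -0.04 without EB3-0 and -0.16 without B8.

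Nr5a2 (Lrh1), a nuclear receptor that activates Pou5f1 and Nanog, lies on chromosome 1, 138740161 to 138857025 (minus strand, 9 exons). Its level was 19.8, 24.0 and 22.5 RPKM in A6, B8 and C4, and 16.4, 27.6 and 28.7 RPKM in EB3-0, EB3-1 and EB3-2. EB3-0 was the lowest of the 6 libraries while the other two EB3 libraries were the highest, so the spread within EB3 exceeded that of 94.2% of tested genes. The clones over EB3 gave a log2 fold change of -0.09 (SE 0.20; 95% interval -0.56 to 0.37; limma, adjusted p = 0.852; exact permutation p = 0.8). Without EB3-0 it was -0.34 with an interval of -0.58 to -0.11 (limma, adjusted p = 0.0889), and without EB3-1 or EB3-2 it was 0.02 or 0.05, so both its sign and its size rested on which EB3 library was used. Without A6 it was -0.02 and without B8 -0.15.

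Tfcp2l1, a target of LIF and STAT3 signalling that can replace LIF when raised, lies on chromosome 1, 120524522 to 120581745 (plus strand, 15 exons). It had 81.2, 99.7 and 84.2 RPKM in A6, B8 and C4, and 54.8, 85.6 and 86.3 RPKM in EB3-0, EB3-1 and EB3-2. The groups overlapped, with EB3-0 well below the other 5 libraries. On the log2 scale the difference of the clones from EB3 was 0.25 (SE 0.18; 95% interval -0.16 to 0.66; limma, adjusted p = 0.512; exact permutation p = 0.6), the largest positive one of the 10. It was 0.09 with the length trend removed, 0.03 without EB3-0 and 0.16 without B8.

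Tbx3, a T-box gene that acts downstream of LIF and is heterogeneous between ES cells, lies on chromosome 5, 120120678 to 120134610 (plus strand, 7 exons). Its level was 26.2, 37.1 and 17.2 RPKM in A6, B8 and C4, and 25.4, 21.6 and 21.8 RPKM in EB3-0, EB3-1 and EB3-2. B8 was the highest and C4 the lowest library, a 2.15-fold range among clones, and the log2 SD of the clones exceeded that of 96.7% of tested genes. In EB3 the range was 1.18-fold. Sim2 clones against EB3 gave a log2 fold change of 0.16 (SE 0.24; 95% interval -0.39 to 0.71; limma, adjusted p = 0.769; exact permutation p = 0.7), and it was -0.10 without B8 and 0.44 without C4, so the clones did not share a direction.

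Prdm14, a PR-domain protein that represses FGF receptor and DNA methyltransferase genes in naive cells, was the least abundant of the 10. It lies on chromosome 1, 13103509 to 13117244 (minus strand, 8 exons). It had 10.6, 12.7 and 9.29 RPKM in A6, B8 and C4, and 11.0, 9.04 and 8.63 RPKM in EB3-0, EB3-1 and EB3-2. B8 was the highest library, and EB3-0 lay above A6 and C4. Its log2 fold change was 0.17 (SE 0.15; 95% interval -0.17 to 0.52; limma, adjusted p = 0.593; exact permutation p = 0.4). It was 0.06 without B8, 0.11 without EB3-2, 0.27 without EB3-0 and 0.28 without C4.

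Sall4, a zinc-finger partner of POU5F1 and NANOG, lies on chromosome 2, 168573832 to 168592701 (minus strand, 4 exons). Its level was 72.4, 85.4 and 82.1 RPKM in A6, B8 and C4, and 80.6, 87.1 and 90.03 RPKM in EB3-0, EB3-1 and EB3-2. A6 was the lowest library, and B8 and C4 lay between EB3-0 and EB3-1. The clones over EB3 gave a log2 fold change of -0.11 (SE 0.10; 95% interval -0.32 to 0.11; limma, adjusted p = 0.610; exact permutation p = 0.3), and it was -0.04 without A6.

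**Figure D3:**
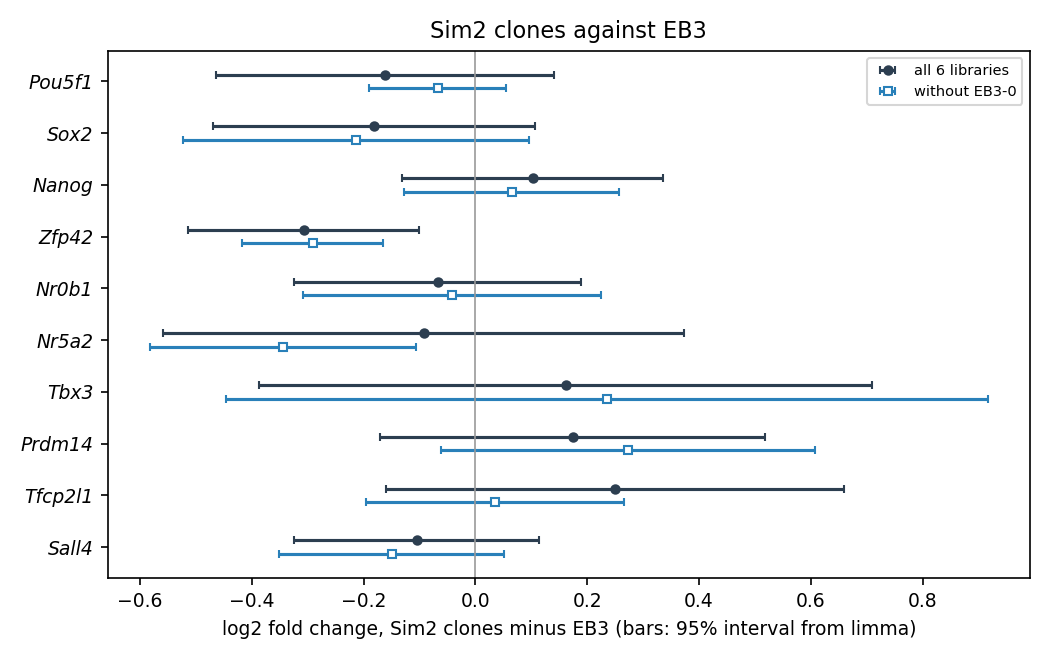
Log2 fold change of the Sim2 clones over EB3 for each factor, with 95% intervals from limma, using all 6 libraries (filled) and without EB3-0 (open). With all libraries the interval of Zfp42 excludes 0, from -0.51 to -0.10, and without EB3-0 so do those of Zfp42 and Nr5a2. Intervals are not adjusted for the number of genes.

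The intervals give the changes that these libraries leave possible. On the linear scale the interval ran from -20.1% to 8.17% for Sall4 and from -8.66% to 26.3% for Nanog. For Tbx3 the interval ran from -23.5% to 63.6%, and for Nr5a2 from -32.1% to 29.6%.

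RPKM is given per cDNA length, and levels were set in order within each group. The order is approximate, since values still varied with cDNA length between libraries and reads of Nanog may be shared with other positions. In EB3 the order was Pou5f1, Zfp42, Nanog, Sox2, Nr0b1, Sall4, Tfcp2l1, Nr5a2, Tbx3 and Prdm14. The ranges over the 3 libraries overlapped for 2 neighbouring pairs, Sall4 with Tfcp2l1 and Nr5a2 with Tbx3. In the clones the order differed in that Tfcp2l1 came before Sall4 and Tbx3 before Nr5a2. Zfp42 with Nanog, Sox2 with Nr0b1, Tfcp2l1 with Sall4 and Tbx3 with Nr5a2 overlapped there. Within every library Zfp42 was above Nanog, and the overlap of both in the clones came from the Nanog level of B8 set against the Zfp42 levels of A6 and C4.

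Since EB3-0 differed by length, factors with cDNAs within 1% of each other in length were also compared as ratios inside each library, 3 pairs picked after their lengths were seen. Zfp42 over Nr0b1 was 2.49, 2.01 and 2.14 in A6, B8 and C4, and 2.57, 2.68 and 2.57 in EB3-0, EB3-1 and EB3-2. All clones lay below all EB3 libraries, with an exact permutation p of 0.1 and an adjusted p of 0.3 over the 3 pairs. Pou5f1 over Nanog was 4.50, 3.58 and 4.12 in the clones, and 5.85, 4.36 and 4.52 in EB3, which overlapped (exact permutation p = 0.2, adjusted 0.3). Tbx3 over Sall4 was 0.362, 0.435 and 0.210 in the clones, and 0.315, 0.248 and 0.242 in EB3 (exact permutation p = 0.6, adjusted 0.6). No pair passed the test, and this design cannot go below 0.1.

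Among the clones, B8 carried the highest level of 9 of the 10 factors, all but Pou5f1, and A6 the lowest level of 7. Over all tested genes B8 was the highest clone for 40.5% and A6 the lowest for 29.2%. Pou5f1 went the other way, highest in A6 and lowest in B8, within a range of 1.06-fold. The clones also differed with length: relative to the mean of the clones, the median gene with a cDNA of at least 8000 bases was 0.09 higher in B8 and 0.09 lower in A6, and one under 1000 bases was 0.05 lower in B8 and 0.07 higher in A6. With the length trend removed, B8 was still highest for 9 factors (39.0% of all tested genes) and A6 lowest for 7 (33.6%). Each clone is 1 culture, so these differences have no replicate within a clone and were given no test. Between all pairs of factors, the profiles over the 6 libraries were most alike for Sox2 and Sall4, with a root mean square difference of 0.08 in centred log2 values, and least alike for Nr5a2 and Tbx3, with 0.46.

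**Figure D4:**
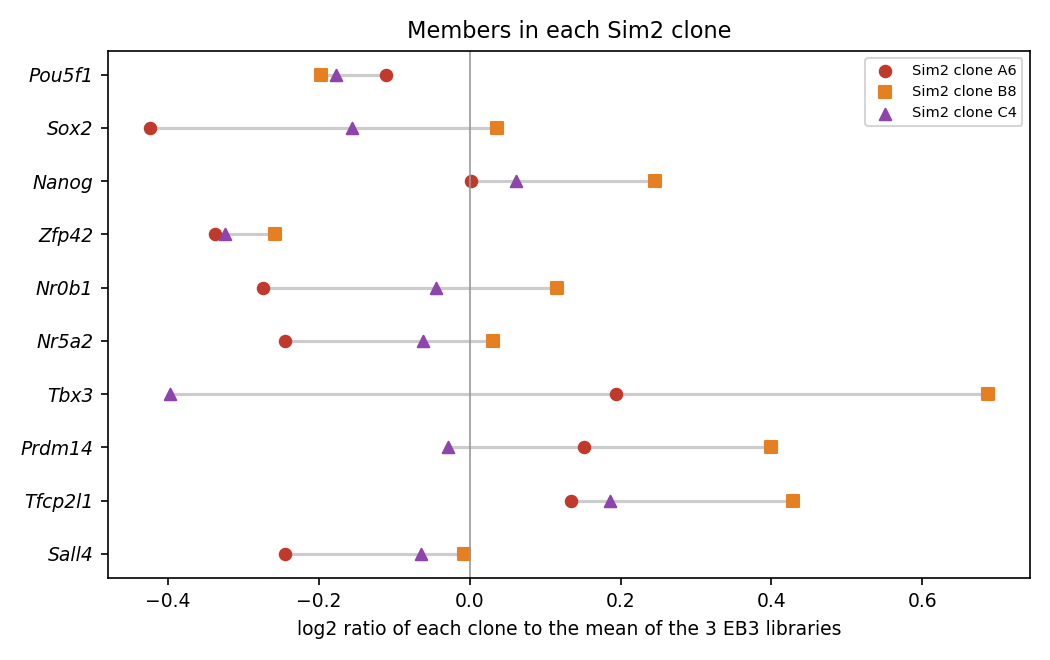
Log2 ratio of each Sim2 clone to the mean of the 3 EB3 libraries for each factor, with a grey line joining the clones. B8 (orange) is the rightmost clone for every factor except Pou5f1, and for Zfp42 all 3 clones lie between -0.34 and -0.26.

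5 of the 10 factors, Sox2, Nanog, Tbx3, Prdm14 and Tfcp2l1, are on the study's own list of genes nearest to a region bound by SIM2. Pou5f1, Zfp42, Nr0b1, Nr5a2 and Sall4 are not. Of all 11595 tested genes, 1211 are on the list. Of the listed 5, 4 had a higher mean log2 value in the clones and 1 a lower one, with a median of 0.16, and the 5 others were all lower, with a median of -0.11. Of these, the signs of Tbx3, Nr0b1 and Nr5a2 turned when 1 library was left out. Over all 1211 tested genes of the list, 704 were higher and 507 lower, with a median of 0.06, or 0.03 with the length trend removed. Over all tested genes, 5694 were higher and 5901 lower, with a median of -0.01, or -0.003 with the trend removed. Of the list, 14 were called higher and 7 lower, where 0.345% and 0.354% of all tested genes were called in those directions. No factor on the list reached an unadjusted p under 0.05, which 24.1% of the list's tested genes did. Zfp42, the factor with the clearest difference, is not on the list, and the difference between listed and unlisted factors was not tested.

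Tested genes within 1 Mb of a factor had median log2 fold changes from -0.35 (5 genes around Sox2) to 0.12 (7 genes around Sall4), and by limma 0 of these neighbours were called near any factor. The median around Sox2 was below 0 in each clone, at -0.47, -0.29 and -0.32 in A6, B8 and C4, beside -0.06 for chromosome 3. Around Nanog the median of 11 neighbours was -0.15, and it was -0.14, -0.20 and -0.15 in the same clones, while Nanog itself was at 0.10. Around Zfp42, 2 neighbours had a median of -0.03. Medians over the factors' whole chromosomes ran from -0.07 to 0.00. Beside the copies of Nanog and Zfp42, the cDNA of Pou5f1 had a match of 385 bases at 100% identity on chromosome 1, that of Sall4 one of 467 bases at 90.2% on chromosome X and that of Tfcp2l1 one of 237 bases at 90.7% on chromosome 8. Sox2, Nr0b1, Tbx3 and Prdm14 had no match found elsewhere at an identity of at least 90%.

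The other genes of the pathway were read in groups. Of 18 other naive and general pluripotency genes, all tested, 0 were called by limma and 3 reached an unadjusted p under 0.05, against 17.8% of all tested genes, with a median log2 fold change of -0.15. Without EB3-0, 2 were called, against 5.99% of all tested genes. Klf5, a Krüppel-like factor that sustains naive cells, had 146, 160 and 155 RPKM in A6, B8 and C4 and 68.5, 98.0 and 99.6 RPKM in EB3-0, EB3-1 and EB3-2, a log2 fold change of 0.81 (limma, adjusted p = 0.0606). Klf2, its relative, had 115, 125 and 131 RPKM with Sim2 and 205, 152 and 158 RPKM without it, a log2 fold change of -0.46 (limma, adjusted p = 0.127). For neither gene did the groups overlap, as for 26.1% of all tested genes, and the 2 relatives lay in opposite directions.

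Of 6 genes of LIF signalling, which feeds Tfcp2l1 and Tbx3, 0 were called, 1 reached an unadjusted p under 0.05, against 17.8% of all tested genes, and the median log2 fold change was 0.12. The kinase Jak1 had a log2 fold change of 0.33 (limma, adjusted p = 0.208) and the receptor subunit Il6st one of 0.41 (limma, adjusted p = 0.284). Stat3, the factor they activate, had mean levels of 43.7 RPKM with Sim2 and 42.0 RPKM without.

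Of 5 genes that PRDM14 is known to repress, 0 were called and 2 reached an unadjusted p under 0.05, against 17.8% of all tested genes, in opposite directions and with a median of -0.06. Dnmt3l, a cofactor of the de novo DNA methyltransferases, had 236, 190 and 257 RPKM in A6, B8 and C4 and 334, 327 and 342 RPKM in EB3-0, EB3-1 and EB3-2, a log2 fold change of -0.56 (limma, adjusted p = 0.0818). All clones lay below EB3, with B8 the lowest, and 26.1% of all tested genes likewise had groups that did not overlap. The receptor gene Fgfr1 had a log2 fold change of 0.36 (limma, adjusted p = 0.154).

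Genes of the formative and primed epiblast, which naive factors hold down, were the group with calls. This list was written with earlier results of these data known, so its share of calls is a description and not an independent result. Of 10 genes 8 were tested, and 6 of these had a lower and 2 a higher mean log2 value in the clones. By limma 3 were called, all lower, where 0.354% of all tested genes were called lower. An unadjusted p under 0.05 was reached by 5, against 17.8% of all tested genes, and the median log2 fold change was -0.91. Otx2, a homeobox factor of the formative state, had a log2 fold change of -1.75 (limma, adjusted p = 0.00378), Lef1, a WNT effector, one of -1.29 (adjusted p = 0.0216) and Fgf15, a secreted growth factor, one of -1.06 (adjusted p = 0.0283). Of these, Otx2 kept its call when the close pair EB3-1 and EB3-2 was averaged, and Lef1 and Fgf15 lost theirs (limma, adjusted p = 0.120 and 0.130). With single libraries left out in turn, Otx2 passed in 6 of 6 fits, and Lef1 and Fgf15 passed in 1, the fit without EB3-0. Fgf5, the usual marker of the primed state, was below the filter, its mean being 0.243 RPKM for the clones and 0.226 RPKM for EB3. These values stand beside the naive factors, none of which was called.

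Of 20 family relatives of the factors 15 were tested, 0 were called and 4 reached an unadjusted p under 0.05, against 17.8% of all tested genes, with a median of -0.12. Yy2, a relative of Zfp42, had a log2 fold change of -0.47 (limma, adjusted p = 0.238). Several close relatives were nearly silent: Nr5a1 was at 0 RPKM in both groups, and Tbx2 had mean levels of 0.0918 RPKM for the clones and 0.0175 RPKM for EB3.

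**Figure D5:**
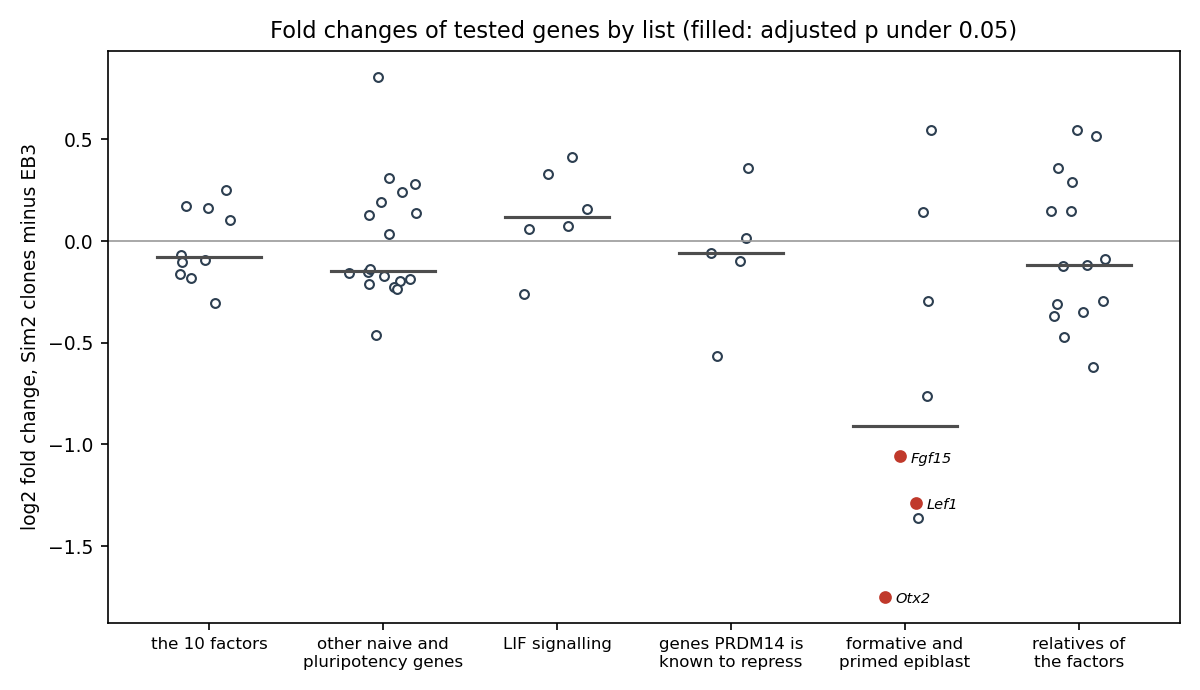
Log2 fold change of the Sim2 clones over EB3 for each tested gene of 6 gene groups, with a bar at each group's median; filled points are genes called by limma at an adjusted p under 0.05. The 10 factors scatter around a median of -0.08 with 0 called, and the 3 called genes, Otx2, Lef1 and Fgf15, are all in the formative and primed group.

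The genes most like the core factors over the 6 libraries were sought among 6542 genes with a mean of at least 10 RPKM, by the root mean square difference of log2 values centred on each gene's own mean. For Pou5f1 they were Ecsit (0.013) and Lpcat3 (0.013), beside a median of 0.18 over all candidates, both highest in EB3-0 (43.5 and 54.3 RPKM). For Nanog they were Rexo1 (0.019) and Mau2 (0.022), beside a median of 0.19, both highest in B8. For Sox2 they were Atp6ap2 (0.051) and Tial1 (0.056), beside a median of 0.23, both lowest in A6. The genes were picked for their likeness, so a shared highest or lowest library follows from the pick. These are likenesses over 6 libraries that share depth and length effects, and they are given without a test.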

How the data were processed

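The authors mapped paired reads to mm9 with BWA at default settings, computed exon coverage per gene with a custom pipeline, and deposited RPKM for 6 libraries in 1 table. The authors tested differential expression by edgeR. Versions, strand and the treatment of reads with several positions are not given in the sources used here. All per-sample columns were used (0 left out). Multiplied by cDNA length, 100% of values fell on whole multiples of 1 step per library (tolerance 0.001), which gave the reads; these cover counting error only, and mates were counted apart.

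Values were tested as log2(RPKM + 0.5) with limma 3.58.1 (R 4.3.3; lmFit, eBayes with trend) on 11595 genes with a mean of at least 1 RPKM (51.3%), adjusted by Benjamini-Hochberg; a call is an adjusted p under 0.05. Fold changes are on this scale, which understates those of low genes. Permutation tests were exact and 2-sided. Clones are 1 culture each and EB3 cultures come from 1 line. The p-values set the difference between groups against the spread among libraries within groups. That spread joins differences between clones with differences between cultures of 1 line, and EB3 holds no replication between lines.

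The 10 factors and all lists were chosen with earlier results of these data known. Named are the 10, Sim2, each list's called genes (at most 5) or otherwise its 2 smallest p (1 such gene is not reported here), and for Pou5f1, Sox2 and Nanog the 2 most alike genes; Stat3, Fgf5, Nr5a1, Tbx2, Gata4, Gata6, Sox17, Lama1, Tubb3 and Nes were added after values were seen. Copies of cDNAs were sought with BLAST 2.17.0 at an identity of at least 90%. Gene positions are 1-based mm9; promoter windows are RefSeq GRCm38.p6. Alternatives were other pseudocounts, no filter, median centring, removal of the length trend, no intensity trend, averaging EB3-1 and EB3-2, and leaving out each library. Limma voom on recovered reads, and removal of the length trend without EB3-0, were added after seeing the data.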

Additional observations from a re-analysis of the deposited data

How the results depend on the processing

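Under 14 of 15 alternatives 0 of the 10 factors were called, and leaving out 1 library gave 0 to 1, the 1 being Zfp42 without EB3-0. The log2 fold change of Nr5a2 turned to 0.034 with EB3-1 and EB3-2 averaged and ran from -0.34 to 0.048 when single libraries were left out (0.020 without EB3-1, 0.048 without EB3-2). In the same way that of Nr0b1 ran from -0.16 to 0.035 (positive without A6) and that of Tbx3 from -0.10 (without B8) to 0.44; the cause was not tested. Of 57 genes in the other 5 groups, 50 were tested and 3 called; the count was 1 with EB3-1 and EB3-2 averaged, 1 with no filter on low values, 7 with the length trend removed and EB3-0 left out, and 1 to 6 when single libraries were left out. Calls over all genes numbered 81, 694 without EB3-0, 6 when EB3-1 or EB3-2 was left out or both were averaged, 20, 17 and 7 without A6, B8 and C4, 250 with the length trend removed, 751 with that and EB3-0 left out, 28 with no filter and 30 without the intensity trend. Pseudocounts of 0.1 and 1, median centring and voom gave 64 to 81. The count models planned for recovered reads were not run, and voom on those reads was run in their place. No paired analysis was possible because the clones (A6, B8, C4) and the EB3 cultures (0, 1, 2) share no replicate numbers. With 3 libraries a group, no exact permutation test could pass 0.05.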
